A study of Mus musculus with 2 samples.

Results

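The miR-17-92 cluster is a group of 6 microRNA genes, Mir17, Mir18, Mir19a, Mir20a, Mir19b-1 and Mir92-1, that are made from the long noncoding transcript Mir17hg. The members were taken by name and position on mouse chromosome 14 and not by level, although earlier results of these data were known. All 6 were among the 1973 microRNA genes of the deposited count tables. The samples were 2 libraries of RNA under 30 nucleotides, each from whole liver of B6NCrl mouse embryos at 14.5 days with no treatment or engineered allele in the labels. They form the only group and are called replicate 1 and replicate 2. The labels call each a single liver yet pooled for sex, and give both the same donor ID with different collection days. How far they are separate animals is therefore uncertain, and the spread between them may be partly technical.

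A polycistron is 1 primary transcript that the nuclear enzyme Drosha cuts into several hairpins. Dicer then cuts each hairpin into a short duplex, and one arm of it, the mature microRNA, is loaded into Argonaute. The seed, bases 2 to 8 of the arm, pairs with messenger RNAs and sets most of its targets. The transcription factor Myc activates this cluster, which is known for promoting growth and survival of dividing cells and is needed for early B cells, a lineage that forms in the fetal liver. The miR-17 and miR-20a arms repress cell cycle and cell death regulators such as Cdkn1a and Bcl2l11, and miR-18a and miR-92a repress genes of the extracellular matrix and its receptors. Mammals have a pair of related clusters, miR-106a-363 on the X chromosome and miR-106b-25 within the gene Mcm7.

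The 6 members carry 4 seeds. The arm that is usually the more abundant is shown for each member, with the seed in capitals, because shared seeds and near-identical arms decide how the levels can be read. Sequences are those of RefSeq on build GRCm38.p6, in which all 6 members and all 9 paralogs were found.

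miR-17-5p: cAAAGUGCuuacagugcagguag
miR-20a-5p: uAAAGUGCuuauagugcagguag
miR-18a-5p: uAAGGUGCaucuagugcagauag
miR-19a-3p: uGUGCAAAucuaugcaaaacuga
miR-19b-3p: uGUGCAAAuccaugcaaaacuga
miR-92a-3p: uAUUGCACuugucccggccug

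Mir17 and Mir20a share the seed AAAGUGC, and their 5p arms differ by C1U and C12U, counted from the 5′ end with the base of miR-17-5p first. Mir19a and Mir19b-1 share the seed GUGCAAA, and miR-19a-3p differs from miR-19b-3p by U11C alone. Mir18 and Mir92-1 have seeds of their own within the cluster.

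The 11 mature arms that RefSeq lists for the members, which for Mir19a is the 3p arm alone, were searched in the GENCODE M21 transcripts. Among them miR-19b-3p was found again in Mir19b-2 and miR-92a-3p in Mir92-2, both on the X chromosome. The other arms were found in no other gene's transcript on either strand. The genome outside transcripts was not searched. The hairpins of these pairs are shown with their longest shared stretch in capitals, since a read from within it cannot be placed.

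Mir19b-1: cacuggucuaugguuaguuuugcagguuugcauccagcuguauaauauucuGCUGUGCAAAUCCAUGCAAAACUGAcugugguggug
Mir19b-2: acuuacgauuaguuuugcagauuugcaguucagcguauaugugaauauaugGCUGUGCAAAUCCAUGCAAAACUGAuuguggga
Mir92-1: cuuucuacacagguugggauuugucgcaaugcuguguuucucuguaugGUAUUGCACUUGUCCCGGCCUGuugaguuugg
Mir92-2: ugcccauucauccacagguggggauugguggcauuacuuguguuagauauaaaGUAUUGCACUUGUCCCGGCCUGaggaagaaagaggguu

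The shared stretch is 25 bases in the Mir19b pair and 22 bases in the Mir92 pair. It begins 2 bases before the arm in Mir19b-1 and 1 base before it in Mir92-1, and in both pairs it ends with the last base of the arm. The gene counts hold no read with several possible places, so the counts of Mir19b-1 and Mir92-1 are lower limits. Their levels scaled by library totals are limits in neither direction, because the totals leave out such reads too. For Mir17, Mir18, Mir19a and Mir20a, no 20-base window of the hairpin occurs in another of the 2202 GENCODE microRNA genes. Reads with several possible places made up 34.0% of all reads in replicate 1 and 33.1% in replicate 2, which is 14.8 and 12.8 times the counts of the whole cluster, and the tables do not say which microRNAs they came from. Counts are per gene and add the 5p and 3p arms, so the arm that was read is not known for any member.

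Mir17hg lies at chr14:115042879-115046727 on the plus strand of build mm10 (GRCm38), and its annotated transcript has 2 exons. All 6 hairpins lie in the second exon, within a stretch of 836 bases. Mir17 is at chr14:115043671-115043754, Mir18 at chr14:115043851-115043946 and Mir19a at chr14:115044000-115044081. Mir20a follows at chr14:115044157-115044263, Mir19b-1 at chr14:115044305-115044391 and Mir92-1 at chr14:115044427-115044506. The gaps between neighbouring hairpins are 96, 53, 75, 41 and 35 bases in that order.

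The libraries held 2353946 and 3132763 counts on the strand of their genes, and levels are CPM, counts scaled by these totals to a common depth. The limit that 0 counts allow is 3 counts, which corresponds to 1.27 CPM for replicate 1 and to 0.958 CPM for replicate 2. Intervals and this limit cover counting error only, because copies made by PCR are not independent molecules. The tissue label was checked against marker microRNAs. The 4 hepatocyte markers, Mir122 among them, summed to 105652 and 119120 CPM in replicates 1 and 2, and the 3 erythroid markers to 50018 and 40030 CPM. The neural list was at 258 and 23.3 CPM, with Mir124a-2, Mir124a-3 and Mir9-2 at 0 counts. The muscle list was at 31.0 and 14.0 CPM, with Mir1a-1, Mir133a-1 and Mir133a-2 at 0 counts. Only Mir137 of the neural list and Mir206 of the muscle list had at least 10 counts in each library. The other genes of these lists are numbered copies, such as Mir124a-2 and Mir124a-3. Any reads that copies share are not counted, so the 0 counts cannot check the label. Marker genes Mir142, Mir9-1 and Mir1a-2 were not analysed here.

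The cluster as a whole held a share of 6.23% in replicate 1 (6.19 to 6.26 by the exact Clopper-Pearson method at 95%) and of 6.66% in replicate 2 (6.63 to 6.68), or 64403 ± 3045 CPM (SD, n = 2). Most of it came from 2 members, Mir17 and Mir20a, while Mir19a ranked 197 and 193 and Mir19b-1 ranked 226 and 222 among all genes in replicates 1 and 2. The share and all ranks given here are by reads that map to 1 place. Other genes with copies lose reads as well, and the totals leave such reads out. All 6 members had at least 10 counts in each library, as did 332 of the 1973 genes. No member had a count on the opposite strand.

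Along the transcript the level did not fall or rise steadily. Mir17, first in the transcript, had 31476 CPM (replicate 1) and 33264 CPM (replicate 2) with a mean of 32370 ± 1264 CPM, and ranked 8 and 6 among all genes. Mir18, which is next, had 8073 and 8403 CPM, a mean of 8238 ± 234 CPM. Both livers thus gave Mir17 several times the counts of its neighbour. Mir19a, the third, had 91.8 and 96.1 CPM, a mean of 93.9 ± 3.06 CPM from 216 and 301 counts. Mir20a, only 75 bases further on, had 17310 and 18569 CPM, a mean of 17939 ± 890.1 CPM, and ranked 18 and 16. The low member therefore lies between high ones on the same transcript. Mir19b-1 had 35.3 and 39.9 CPM, a mean of 37.6 ± 3.28 CPM from 83 and 125 counts. Mir92-1, last of the 6, had 5264 and 6184 CPM, a mean of 5724 ± 650.1 CPM, and ranked 44 and 40. The counts of Mir92-1 are a lower limit, yet they exceeded those of Mir19a in each library.

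**Figure D1:**
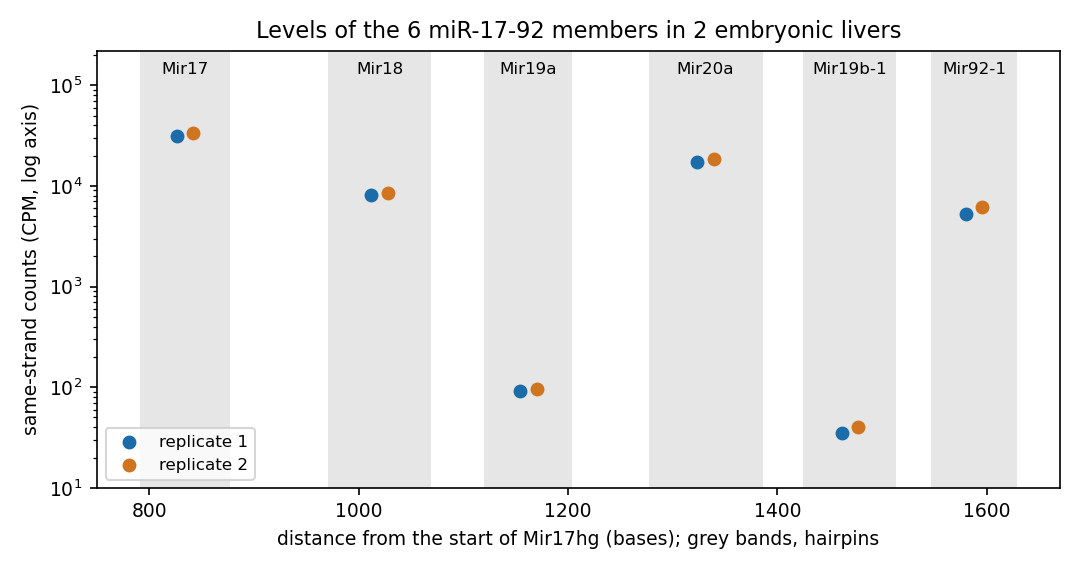
The level of each member (CPM, log axis) is plotted against the distance of its hairpin from the start of Mir17hg (bases), with 1 point per library and grey bands for the hairpins. Mir19a and Mir19b-1 lie under 100 CPM in both livers and the other 4 members at 5264 CPM or more.

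By reads that map to 1 place, the order of levels was the same in both livers, and it was Mir17, Mir20a, Mir18, Mir92-1, Mir19a and Mir19b-1. The places of Mir92-1 and Mir19b-1 are uncertain, since the counts of both are lower limits. Without them the order was Mir17, Mir20a, Mir18 and Mir19a in both livers. On these counts no pair of values overlapped that of the next in order, and each step exceeded the SD of both neighbours. Annotated hairpin lengths run from 80 bases (Mir92-1) to 107 bases (Mir20a), and the order of these counts was the same as CPM per 100 bases. The libraries hold RNA under 30 nucleotides, so counts need not rise with hairpin length. Values per base are a description and not a correction. On that scale Mir17 had 37472 CPM per 100 bases in replicate 1 and 39600 in replicate 2, and Mir20a had 16178 and 17354. Mir18, with 8409 and 8754 CPM per 100 bases, was closest to its neighbour Mir92-1, with 6580 and 7730. Mir19a had 112 and 117 CPM per 100 bases and Mir19b-1 had 40.5 and 45.9.

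In ratios taken within a library, where the library total cancels, Mir17 had 1.82 times the counts of Mir20a in replicate 1 (95% exact interval 1.80 to 1.84) and 1.79 times in replicate 2 (1.77 to 1.81). Per base of hairpin these ratios were 2.32 and 2.28. Mir20a had 2.14 times the counts of Mir18 in replicate 1 (2.11 to 2.18) and 2.21 times in replicate 2 (2.18 to 2.24), or 1.92 and 1.98 per base. These are the 3 members that share no arm with another gene and stand high. Mir18 had 1.53 times the counts of Mir92-1 in replicate 1 (1.50 to 1.57) and 1.36 times in replicate 2 (1.33 to 1.38), or 1.28 and 1.13 per base, and this ratio is an upper limit because Mir92-1 is a lower one.

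The widest step in these counts was between Mir92-1 and Mir19a. Mir92-1 had 57.4 times the counts of Mir19a in replicate 1 (50.1 to 65.9) and 64.4 times in replicate 2 (57.4 to 72.4), or 58.8 and 66.0 per base. Mir17 exceeded Mir19a by 343-fold in replicate 1 (300.1 to 394) and by 346-fold in replicate 2 (309 to 389), or by 335-fold and 338-fold per base. The 3p arm of Mir19a, the one searched, stands whole in no other gene's transcript and shares at most 12 consecutive bases with another hairpin, those of Mir19b-1 and Mir19b-2. The search was for exact matches and does not cover reads placed with mismatches. The aligner is not known, so whether Mir19a lost such reads was not tested. Mir19a had 2.60 times the counts of Mir19b-1 in replicate 1 (2.01 to 3.39) and 2.41 times in replicate 2 (1.95 to 2.99), or 2.76 and 2.55 per base, which are upper limits because Mir19b-1 is a lower one.

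The hairpins were folded with RNAfold as a description. The minimum free energy per base was -0.472 kcal/mol for Mir19a and -0.434 kcal/mol for Mir19b-1. It was -0.437 kcal/mol for Mir17, -0.425 kcal/mol for Mir92-1, -0.361 kcal/mol for Mir20a and -0.304 kcal/mol for Mir18. The GC content of the 6 hairpins ran from 43.7% (Mir19b-1) to 47.5% (Mir92-1), all under the median of 51.7% over the 1005 mouse hairpins in RefSeq.

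By reads that map to 1 place, the related X chromosome cluster was about 100 times lower. Each of these clusters has genes that lose reads to a copy in the other, so the ratio is a limit in neither direction. Its 6 genes summed to 609 and 677 CPM in replicates 1 and 2, and the miR-17-92 sum was 102 times as high in replicate 1 (95% exact interval 97.0 to 108) and 98.4 times in replicate 2 (94.2 to 103). The cluster in Mcm7, a gene of the DNA replication machinery, summed to 26276 and 25791 CPM. Against it the miR-17-92 sum was 2.37 times as high in replicate 1 (2.35 to 2.39) and 2.58 times in replicate 2 (2.56 to 2.60). No 20-base window of the Mcm7 cluster's hairpins occurs in another hairpin, while Mir19b-1 and Mir92-1 lose reads. This ratio is therefore a lower limit, and its intervals do not cover the loss.

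Position by position, 5 members have a counterpart in the X chromosome cluster. Mir106a, the counterpart of Mir17, had 139 and 165 CPM, so that Mir17 was 227-fold higher in replicate 1 (203 to 253) and 201-fold in replicate 2 (185 to 220). The arms miR-17-5p and miR-106a-5p differ by U10A alone, yet the counts were far apart. Mir18b had 25.5 and 23.6 CPM, and Mir18 was 317-fold (246 to 415) and 356-fold (283 to 453) higher. Mir20b had 119 and 138 CPM, and Mir20a was 145-fold (129 to 164) and 135-fold (122 to 148) higher. The pairs with an identical arm stood closer together in counts of reads that map to 1 place. Mir92-2 had 159 and 207 CPM, and Mir92-1 was 33.0-fold (29.8 to 36.7) and 29.8-fold (27.6 to 32.3) higher. Mir19b-2 had 9.77 and 7.66 CPM from 23 and 24 counts, and Mir19b-1 was 3.61-fold (2.25 to 6.00) and 5.21-fold (3.35 to 8.43) higher. Per base of hairpin the 5 ratios in replicate 1 were 175 (Mir17), 274 (Mir18), 108 (Mir20a), 37.6 (Mir92-1) and 3.48 (Mir19b-1), so the order of the pairs was the same. In replicate 2 they were 156, 308, 101, 33.9 and 5.03 in the same sequence.

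**Figure D2:**
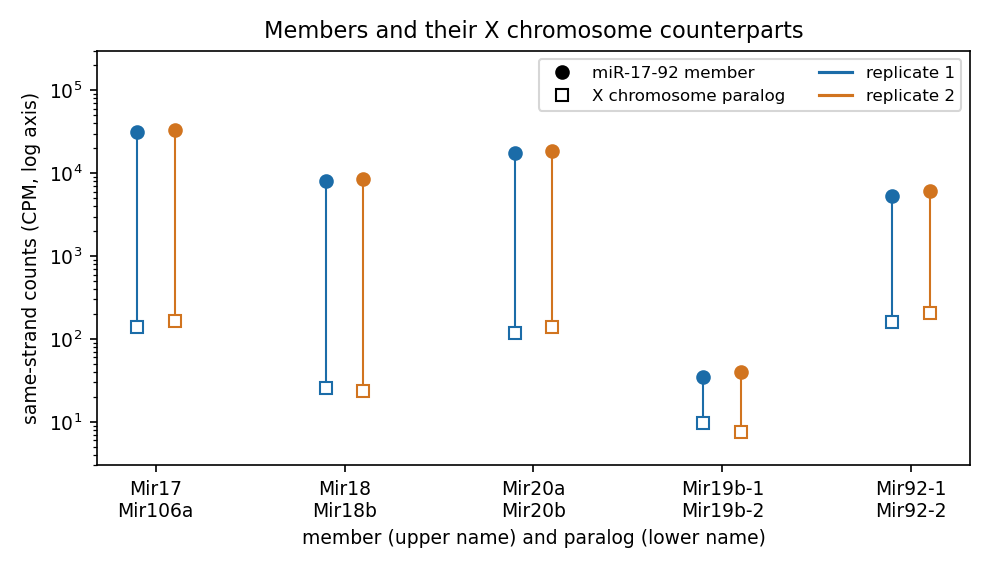
Levels (CPM, log axis) of 5 members (filled circles) and their X chromosome counterparts (open squares) are joined by a line for each library. The lines of Mir17, Mir18 and Mir20a span over 100-fold, and that of Mir19b-1 spans 3.61-fold and 5.21-fold.

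Within the X chromosome cluster the order differed from that of the miR-17-92 members. Mir92-2, a lower limit, had the most counts of the X chromosome genes in both livers, with 1.15 times the counts of Mir106a in replicate 1 (0.986 to 1.33) and 1.25 times in replicate 2 (1.12 to 1.41). Per base of hairpin these ratios were 0.819 and 0.896, so Mir106a came first on that scale. On chromosome 14, Mir17 had 5.98 times the counts of Mir92-1 in replicate 1 (5.87 to 6.09) and 5.38 times in replicate 2 (5.30 to 5.46). Mir19b-1 and Mir19b-2 had the fewest counts of their clusters, but both are lower limits, so their place is uncertain. Mir363, which has no counterpart on chromosome 14, had 156 and 135 CPM.

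Grouped by seed, the cluster held most of the counts of every family it belongs to, by reads that map to 1 place. These shares add whole genes, both arms, and are not scaled to length. In the miR-17 seed family of 7 genes, Mir17 and Mir20a held 66.3% of the family in replicate 1 (66.1 to 66.5 by Clopper-Pearson at 95%) and 68.1% in replicate 2 (67.9 to 68.2). The remainder came nearly all from the Mcm7 cluster, where Mir93 had 13435 and 13686 CPM and Mir106b had 11120 and 10336 CPM. Mir6383, which shares the seed, had 0 counts in both libraries. In the miR-18 family Mir18 held 99.7% of the counts in each library, and Mir18b held the rest.

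In the miR-19 family of 3 genes, Mir19a and Mir19b-1 held 92.9% in replicate 1 (89.5 to 95.4) and 94.7% in replicate 2 (92.2 to 96.6), but of only 322 and 450 counts. In the miR-92 family of 7 genes Mir92-1 held 67.5% in replicate 1 (66.8 to 68.2) and 71.2% in replicate 2 (70.7 to 71.7). Mir25, the miR-92 relative in Mcm7, followed with 1721 and 1768 CPM, and Mir32 had 424 and 379 CPM. Mir367 had 1 count in replicate 1 and 0 in replicate 2. The families summed to 73599 and 76159 CPM for the miR-17 seed, 8098 and 8427 CPM for miR-18, 137 and 144 CPM for miR-19, and 7801 and 8684 CPM for miR-92. In counts, the miR-19 and miR-92 sums are lower limits, because of the arms they share between loci. In CPM they are not, since the library totals leave out such reads too. The shares held by members in the miR-19 and miR-92 families are limits in neither direction. Members and X chromosome genes both lose reads there, and the intervals do not cover this loss.

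**Figure D3:**
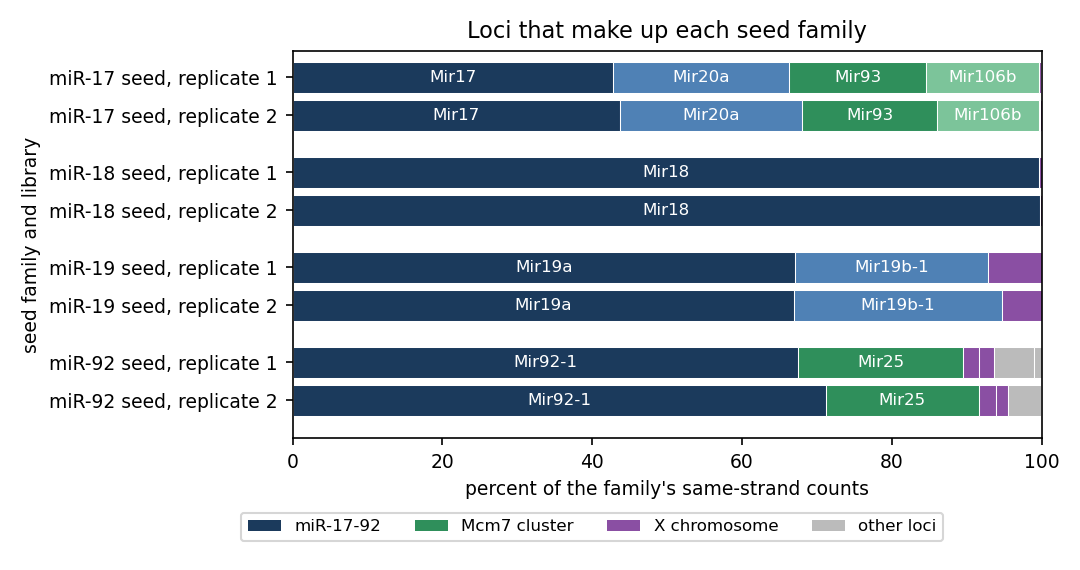
Each bar splits the counts of a seed family in 1 library by gene, as percent of the family, with miR-17-92 members in blue, the Mcm7 cluster in green, X chromosome genes in purple and other loci in grey. The blue part runs from 66.3% (miR-17 seed, replicate 1) to 99.7% (miR-18 seed).

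Some arms outside the usual one also share a seed with another gene. The miR-18a-3p seed is found in Mir7069, which had 6 and 10 counts and did not reach the minimum for testing.

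Among microRNA gene clusters, a wide span of levels was not limited to miR-17-92. Neighbouring genes on the same strand within 10000 bases formed 14 clusters with at least 3 genes at 10 or more counts in each library. The highest and lowest members of miR-17-92 differed by 861-fold in mean CPM, and among the 14 spans this was the third. The cluster from Mir770 to Mir432 came next with the same rounded span. It spanned more than miR-17-92 in replicate 1 (1042-fold against 893-fold) and less in replicate 2 (729-fold against 834-fold). The cluster from Mir379 to Mir3072 spanned 6125-fold over 30 genes and that from Mir450b to Mir322 spanned 883-fold over 7 genes, while the Mcm7 cluster spanned 7.77-fold over 3. By summed level miR-17-92 was second, after the cluster from Mir379 to Mir3072 with 136012 CPM. Spans rise with the number of genes in a cluster and include genes that lose reads to copies, so their order is a description only.

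**Figure D4:**
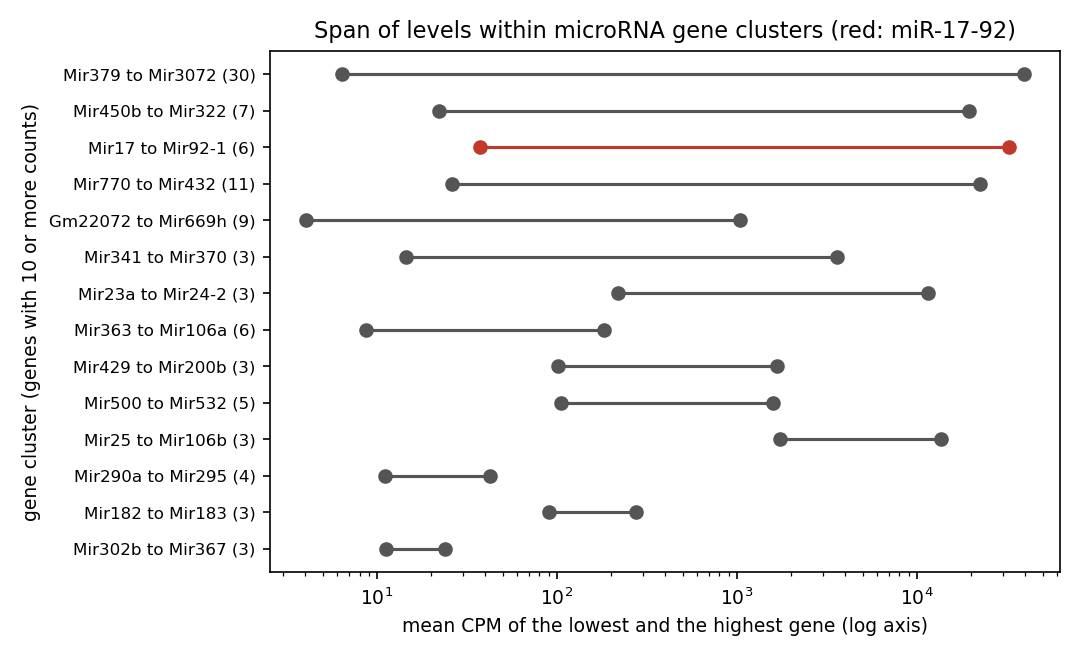
For each of the 14 clusters a line joins the mean CPM (log axis) of its lowest and highest gene with at least 10 counts in each library, and the number of such genes is in parentheses. The miR-17-92 line (red) runs from 37.6 to 32370 CPM.

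The last question was whether the members had the same level in the 2 livers. The counts of each gene were compared between the libraries with an exact binomial test (two-sided, given the library totals), Benjamini-Hochberg adjusted over the 332 genes. By this test 4 of the 6 members had a higher level in replicate 2, and the other 2, Mir19a and Mir19b-1, did not pass. Over all genes tested 41.0% differed in either direction, 23.2% being higher in replicate 2 and 17.8% higher in replicate 1. As log2 of replicate 2 over replicate 1, with 0.5 added to each count, the median was 0.09 for the members and 0.03 for all tested genes, whose middle 50% ran from -0.16 to 0.17. The test compares these libraries and not conditions, and it takes no account of the variation between animals.

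Mir92-1 differed most, with 1.17 times the level in replicate 2 (95% exact interval 1.15 to 1.20, adjusted p = 1.08e-43 by the exact binomial test). Mir20a was 1.07-fold higher (1.06 to 1.09, adjusted p = 1.51e-26, exact), Mir17 1.06-fold (1.05 to 1.07, adjusted p = 1.48e-29, exact) and Mir18 1.04-fold (1.02 to 1.06, adjusted p = 0.000104, exact). As rounded here, none of these 4 intervals reaches above 1.20. Folds between the livers are limits in neither direction for Mir92-1, Mir19b-1 and their X chromosome copies. The counts of these genes leave out reads from the shared stretches. Mir19a had 1.05 times the level in replicate 2 (0.876 to 1.25, adjusted p = 0.785, exact) and Mir19b-1 had 1.13 times (0.851 to 1.51, adjusted p = 0.587, exact), and neither difference was detectable at their depth. By TMM scaling 39.5% of genes differed, 19.6% being higher in replicate 2 and 19.9% in replicate 1. There too 4 members were higher in replicate 2, and the ratio of Mir18 was 1.02 with an adjusted p of 0.0360 by the exact test.

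By reads that map to 1 place, the mix within the cluster was nearly constant between the livers. The sum lacks the reads that Mir19b-1 and Mir92-1 lose, so the shares of Mir17, Mir20a and Mir18 are upper limits. Shifts in the shares of Mir19b-1 and Mir92-1 are limits in neither direction, and the intervals do not cover this loss. Mir17 made up 50.6% of the members' summed counts in replicate 1 (50.3 to 50.8 by Clopper-Pearson at 95%) and 50.0% in replicate 2 (49.8 to 50.2). Mir20a made up 27.8% (27.6 to 28.0) and 27.9% (27.7 to 28.1), and Mir18 13.0% (12.8 to 13.1) and 12.6% (12.5 to 12.8). Mir92-1 had the largest shift of share, from 8.46% (8.31 to 8.60) to 9.29% (9.17 to 9.42), which is a ratio of 1.10 (1.07 to 1.12). Mir19a held 0.147% and 0.144%, and Mir19b-1 held 0.0566% and 0.0600%. Relative to the cluster sum, chosen as a scale after the data were seen, Mir17 and Mir18 were thus slightly lower in replicate 2, with ratios of 0.988 (0.979 to 0.998) and 0.974 (0.956 to 0.992).

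Mir92-2, which shares its arm with Mir92-1, was also higher in replicate 2, at 1.30-fold (1.15 to 1.48, adjusted p = 0.000173, exact). In the same seed family Mir92b went the other way, with 75.6 CPM (replicate 1) against 10.9 CPM (replicate 2). It was 6.97-fold higher in replicate 1 (4.81 to 10.4, adjusted p = 1.68e-33, exact). Mir32 was 1.12-fold higher in replicate 1 (1.03 to 1.22, adjusted p = 0.0278, exact). Of the 9 paralogs, 3 were higher in replicate 2 (Mir92-2, Mir106a and Mir93) and 1 in replicate 1 (Mir106b, 1.08-fold with an interval of 1.06 to 1.09). Mir106a (adjusted p = 0.0671) and Mir93 (adjusted p = 0.913) did not pass the exact test by TMM scaling. The marker sums given above moved between the same libraries, with the hepatocyte sum higher in replicate 2 and the erythroid, neural and muscle sums lower. The white cell sum was 10601 and 10015 CPM and the endothelial sum 62537 and 58639 CPM. The erythroid list went both ways by the exact test, with 2 of its 3 genes higher in replicate 1 and Mir486 higher in replicate 2 (405 and 516 CPM). The neural sum came mostly from Mir137, with 242 and 22.3 CPM. Their part in the differences of the members, and of Mir92b, was not tested. In whole tissue, fewer cells of a type and less RNA per cell cannot be told apart.

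**Figure D5:**
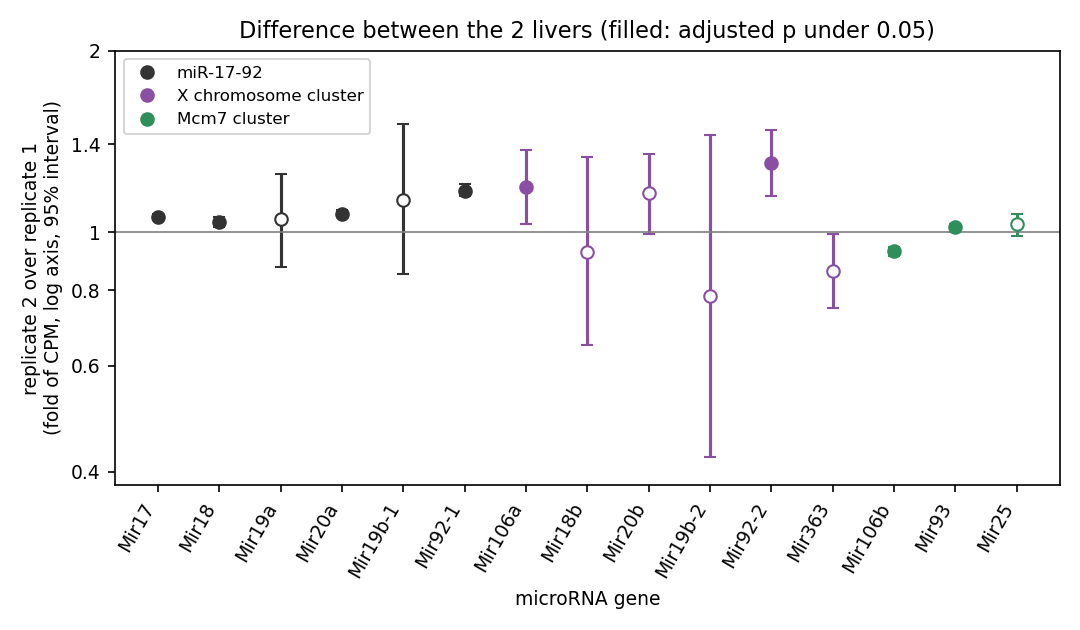
The level in replicate 2 over that in replicate 1 (fold of CPM, log axis) is shown for the members (black), the X chromosome cluster (purple) and the Mcm7 cluster (green), with 95% exact intervals, and filled points passed the test. The 6 members lie between 1.04 and 1.17, and the intervals of Mir19a and Mir19b-1 include 1.

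The genes with the pair of levels most like that of Mir17, the highest member, came from 3 other chromosomes. By distance of log2 CPM over the 2 libraries, among 210 other genes with at least 100 counts in each, the nearest was Mir335 (distance 0.126, with 32723 and 30772 CPM). It was followed by Mirlet7g (0.216, with 35359 and 36536 CPM) and the red cell microRNA Mir451a (0.305, with 38020 and 30243 CPM). Over only 2 libraries this measure says that the levels were close and nothing more.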

How the data were processed

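Small RNA libraries of 2 embryonic mouse livers were analysed from deposited tables of raw read counts per microRNA gene, which the authors did not normalize. The assembly is mm10 per the labels, and the annotation is M4, with each table derived from its own alignment, per the notes deposited with the files. Aligner and counter: not given in the sources used here. Column 3 of the tables, which have no header, was taken as counts on the gene's strand. Column 2 equals the sum of columns 3 and 4 for every gene, which cannot tell columns 3 and 4 apart. Column 4 held 9.60% of the gene counts of column 2 in replicate 1 and 10.2% in replicate 2. Totals exclude the rows for reads outside genes, which hold unmapped reads (18.6% and 17.7% of 6395680 and 8068090 reads), reads with more than 1 place (34.0% and 33.1%) and reads in no gene on either strand (6.66% and 5.93%).

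Of 1973 IDs, 1894 matched GENCODE M21 (GRCm38), and the other 79 held 3 counts. Levels are CPM of same-strand totals. A gene was tested if it had 10 or more counts in both libraries. The test was the exact binomial test, two-sided with the smaller tail doubled, and a gene was called at a Benjamini-Hochberg adjusted p under 0.05. Arms and hairpins came from RefSeq (GRCm38.p6). Tools were Python 3.11.15, SciPy 1.17.1, RNAfold 2.7.2, edgeR 4.0.16 (TMM factors) and DESeq2 1.42.0 (size factors). The test was checked on simulated counts with counting error only, so the check does not cover variation between animals or PCR copies. The named genes were the members, 9 paralogs, genes sharing a seed or whole arm, and the 3 genes nearest to the highest member. Gene clusters are named by their first and last gene. The members, lists and tests were chosen with earlier results of these data known. Other settings tried were different minimum counts, scalings, totals, pseudocounts and strands, hairpin length, and leaving out a replicate.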

Additional observations from a re-analysis of the deposited data

How the results depend on the processing

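The mean share of the cluster, 6.44% of same-strand counts, moved by more than the SD of 0.304 under 4 settings. It was 5.80% with counts regardless of strand, 7.19% without the highest gene in the totals, 2.44% of all reads, and 5.86% for the 4 members with no searched arm found elsewhere. Of the 24 values of single member levels under other settings, 11 moved by more than their SD, all with another strand or total. Leaving out a replicate gave 6.23% to 6.66%. The count of members that differed was 4 under every alternative run, and of all genes 129 to 147 against 136. With a minimum of 100 counts Mir19b-1 was not tested. The split of differing genes was 65 higher in replicate 2 and 66 in replicate 1 by TMM and also by DESeq2 size factors, against 77 and 59 by library totals. No scaling, total, strand or pseudocount changed the direction of a member, except the members' own sum as total, which gave log2 ratios of -0.02 for Mir17, -0.04 for Mir18 and -0.03 for Mir19a and reverses some by construction, because shares add up to a whole. The order of levels by reads that map to 1 place was the same under each alternative run, as was that of the 4 members left without Mir19b-1 and Mir92-1. No paired analysis was possible because the design has a single group. Depth limits Mir19a and Mir19b-1, which have at most 301 counts in a library.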
